A study of Mus musculus with 21 samples.

Results

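The DNA sequence preferences of 2 bZIP transcription factors were compared on double-stranded DNA in which the cytosines of a single strand were 5-hydroxymethylcytosine (5hmC): the mutant CREB1(A297V), on 4 protein binding microarrays, and wild-type CEBPB, on 2. These are 6 of the 21 arrays of the series, and every array with either protein on 5hmC was included. A297V replaces an alanine of the basic region of CREB1 with valine, the residue that wild-type CEBPB carries at that place, and the series also holds the reciprocal mutant CEBPB(V285A). Each protein was a GST-tagged DNA-binding domain made by in vitro transcription and translation, so neither group had full-length protein, a partner from a cell, or chromatin. All 6 arrays shared the 5hmC-substituted second strand, with unmodified cytosine on the printed strand. Samples are named by group and replicate number, replicates 1 to 4 for CREB1(A297V) 5hmC and 1 and 2 for CEBPB 5hmC.

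A bZIP protein binds DNA as a dimer. The leucine zipper joins the monomers, and each basic region lies in the major groove and reads one half-site. CREB1, the cAMP-responsive factor, is known for the palindromic CRE, and CEBPB, a factor of adipocyte, liver and inflammatory gene programmes, for the C/EBP palindrome. The PAR bZIP factors, such as DBP, HLF and TEF, are known for another palindrome, in which the half-site is GTAA. TET enzymes make 5hmC by oxidising 5-methylcytosine, and the base is plentiful in neurons and embryonic stem cells.

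The sequences on which the comparison turned are given on the synthesised strand, 5′ to 3′, with each 5hmC as a capital C. The first 6 are fixed sites built from half-sites, and the last 5 had groups that did not overlap.
PAR palindrome: ttaCgtaa
C/EBP palindrome: ttgCgCaa
CRE palindrome: tgaCgtCa
C/EBP and PAR half-sites: ttgCgtaa
PAR and C/EBP half-sites (its reverse complement): ttaCgCaa
CRE and PAR half-sites: tgaCgtaa
PAR half-site in a strand without C: ttaggtaa
PAR half-site after T: atgtgtaa
C/EBP half-site TTGC, first: ttgCaCaa
C/EBP half-site TTGC, second: ttgCgaaa
No full half-site of the 3: ttgtgaaa

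The measurement was the authors' Z-score of each 8-base sequence (8-mer), a score relative within an array. Of 65535 8-mers, 409 were carried by no probe and stood at 0, and 1024 had fewer than 8 probes, against a median of 17. Z-scores were not scaled between arrays. The highest Z-score of an array ran between 15.7 and 31.1 over the CREB1(A297V) arrays, and was 50.1 and 69.0 on the CEBPB arrays. The highest CEBPB group mean, 59.6, belonged to an 8-mer with fewer than 8 probes. Among the 8-mers named below with at least 8 probes, the highest values were 15.7, 25.4, 24.7 and 24.3 in CREB1(A297V), against 37.9 and 45.1 in CEBPB. The median spot intensity was 1399, 1673, 76.0 and 288 in CREB1(A297V) replicates 1 to 4, against 580 and 538 in CEBPB, and the 99th percentile was 2.07 to 2.29 times the median in CREB1(A297V), against 5.67 and 5.94 times in CEBPB. Between 43.9% and 100% of spots exceeded their local background in CREB1(A297V), against 90.3% and 97.5% in CEBPB. The precision is limited by the number of arrays, and nothing in the labels tells whether arrays of a group used separate protein preparations, so the tests measure the spread between these arrays, which may be technical. The array numbers in the file names differ between the proteins (470, 492 and 534 for CREB1(A297V), 535 for CEBPB), so array number and protein cannot be told apart.

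CREB1(A297V) replicate 4 stood apart from its group. Across all 8-mers its Z-scores correlated with those of the CEBPB arrays at r = 0.631 and 0.671, and with CREB1(A297V) replicates 1, 2 and 3 at 0.335, 0.521 and 0.612, a description over overlapping 8-mers. The other CREB1(A297V) arrays correlated with each other at 0.392 to 0.582 and with the CEBPB arrays at 0.288 to 0.475, while the CEBPB arrays correlated with each other at 0.793. Values with and without replicate 4 are therefore given for several results that rest on it. Counts of 8-mers whose groups do not overlap, lists of the highest 8-mers and half-site counts of called pairs include it. Over all 8-mers, 6455 had groups apart with CREB1(A297V) higher and 7934 with it lower. Without replicate 4, which leaves fewer arrays to separate, these were 10852 and 12098.

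Of the 11 fixed sites, those with the C/EBP half-site TTGC or GCAA beside itself or a PAR half-site had the largest differences, with CREB1(A297V) lower. In the test across all 8-mers on the 6 arrays, given further on, none of the 11 was called (adjusted p 0.46 to 1.00, limma). TTGCGCAA had Z-scores of 2.93, 1.40, 1.41 and 6.73 in CREB1(A297V), against 34.4 and 35.9 in CEBPB. The groups did not overlap, and the highest CREB1(A297V) value was that of replicate 4. The difference was -32.0 with a standard error of 3.29 (unadjusted p 2.7e-05, adjusted p 0.46, limma), and by group mean the 8-mer ranked 556 in CREB1(A297V) and 4 in CEBPB. Probes that carried it had a median intensity 1.29, 1.11, 1.07 and 1.39 times the array median in CREB1(A297V), against 6.21 and 6.11 times in CEBPB.

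Sites with a single C/EBP half-site beside a PAR half-site went the same way. TTGCGTAA had 3.20, 2.52, 2.02 and 9.29 in CREB1(A297V), against 26.4 and 45.1 in CEBPB. Its reverse complement TTACGCAA had 3.74, 6.00, 4.38 and 6.06 in CREB1(A297V), against 19.3 and 26.5 in CEBPB. Neither site had overlapping groups, and the differences were -31.5 and -17.9 (both adjusted p 0.46, limma). In linear intensity, probes with TTGCGTAA stood 1.13 to 1.61 times above the array median in CREB1(A297V), against 6.07 and 7.47 times in CEBPB.

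The PAR palindrome, by contrast, was near the top in both. TTACGTAA had 15.7, 21.9, 24.7 and 24.3 in CREB1(A297V), against 37.9 and 23.4 in CEBPB. The groups overlapped, and the 8-mer ranked 1, 2, 2 and 3 on the CREB1(A297V) arrays, and 2 and 13 on the CEBPB arrays. The difference of -9.0 had a standard error of 8.41 (adjusted p 0.71, limma), and its direction turned after quantile normalization (8.27) and with a score recomputed from the probe signals (0.59 on the log2 scale). In CREB1(A297V) the probes that carried it were 2.07 to 2.81 times as bright as the array median, against 5.24 and 4.3 times in CEBPB.

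TGACGTAA, with a CRE and a PAR half-site, had 12.4, 15.8, 18.0 and 13.8 in CREB1(A297V), against 14.7 and 15.0 in CEBPB. The means lay 0.176 apart with a standard error of 3.61 (adjusted p 1.00, limma), which leaves room for differences of several units in either direction, and the sign turned without CREB1(A297V) replicate 2 or 3. The difference was 6.64 after quantile normalization and 0.93 on the log2 scale with the recomputed score (adjusted p 0.55 and 0.42, limma), so the near-equality depends on the scale. The CRE palindrome TGACGTCA was low in CREB1(A297V), at 0.558, 0.534, -0.337 and 1.41, against 8.74 and -0.653 in CEBPB, where the arrays disagreed. TGACGCAA, with a CRE and a C/EBP half-site, had 5.50, 4.41, 4.27 and 3.30 in CREB1(A297V), against 9.73 and 2.85 in CEBPB, again with overlapping groups. Without CEBPB replicate 1 both differences changed sign (1.19 for TGACGTCA and 1.53 for TGACGCAA).

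The C/EBP-ATF composite site TGATGCAA, known as a target of dimers between C/EBP and ATF factors, had 3.30, 2.27, 0.281 and 4.21 in CREB1(A297V), against 19.2 and 5.66 in CEBPB. Its groups did not overlap, but the CEBPB arrays differed from each other by more than the lower of them. The other fixed 8-mers were low in CREB1(A297V). TTGCATCA averaged 0.581 ± 0.716 in CREB1(A297V) and 2.89 in CEBPB, TTACGTCA 0.786 ± 0.706 and 1.79, and TTGCGTCA -0.100 ± 0.525 and 0.824 (SD, n = 4). By group mean in CEBPB, TTGCATCA ranked 1043 of 65535, TTACGTCA 4113 and TTGCGTCA 13920. Of these 3, the groups did not overlap at TTGCATCA.

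**Figure D1:**
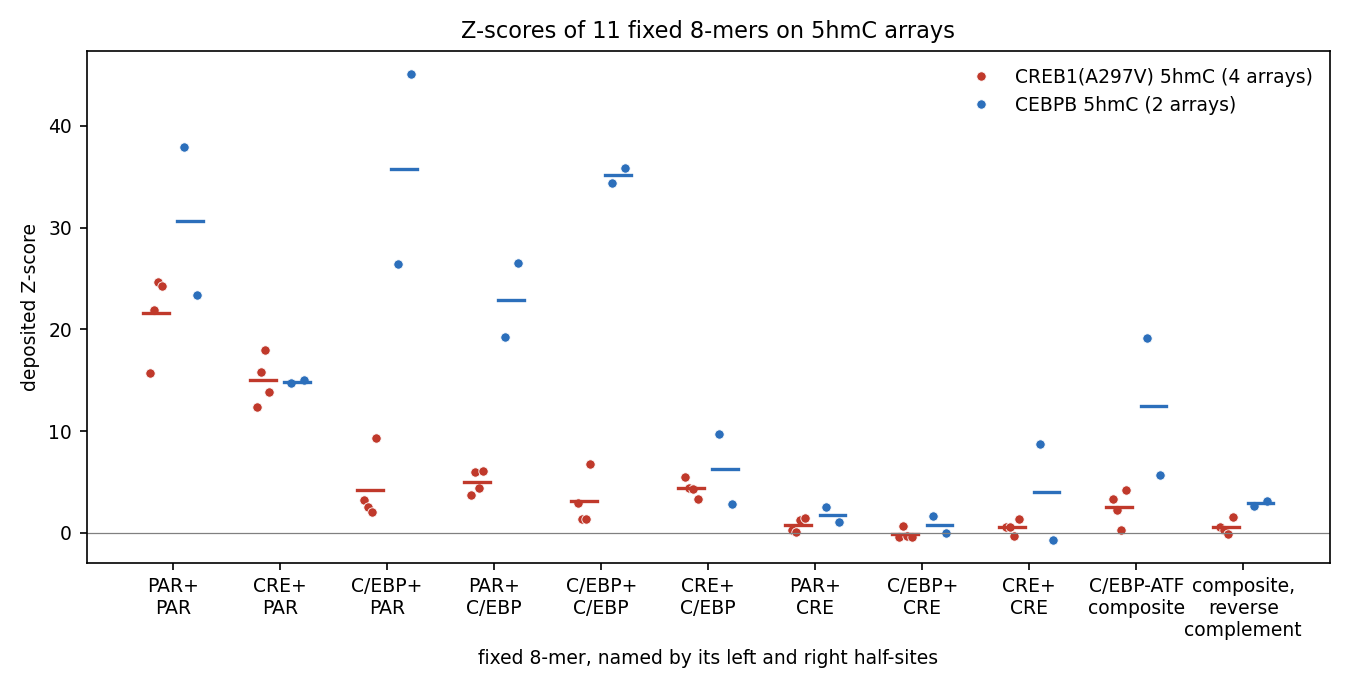
Deposited Z-scores (vertical axis, no unit) of the 11 fixed 8-mers, with 1 point per array and a bar at the group mean, for CREB1(A297V) 5hmC (4 arrays, left of each pair) and CEBPB 5hmC (2 arrays). The proteins overlap at the PAR palindrome and at the CRE and PAR site, while the C/EBP palindrome averages 3.12 in CREB1(A297V) and 35.2 in CEBPB.

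The test across all 8-mers used limma with the mean-variance trend, two-sided, and an 8-mer was called at a Benjamini-Hochberg adjusted p under 0.05. On the 6 arrays with every 8-mer in the fit, 0 of 65535 were called (0.0%), with 6726 at an unadjusted p under 0.05, and the lowest adjusted p was 0.459. That count includes the 409 8-mers without a probe. When they were left out, an alternative chosen after seeing the data, 34 were called, all lower in CREB1(A297V). Restricting the same fit to the 64511 8-mers with at least 8 probes called 25, all lower in CREB1(A297V) (0.0388% of those tested), and 0 higher, with 7051 at an unadjusted p under 0.05. All 25 had groups that did not overlap, as did 12.1% of all 8-mers with CREB1(A297V) lower. Fitted with all 21 arrays, which share one estimate of spread, 341 were higher (0.52%) and 1109 lower (1.69%) in CREB1(A297V), together 2.21%, or 767 and 1094 on the asinh scale. The count of 25 went to 3 without CREB1(A297V) replicate 2, 2 without replicate 3 and 222 (13 higher and 209 lower) without replicate 4. With all 21 arrays, the 341 higher and 1109 lower calls went to 5 and 169 without CEBPB replicate 1, and to 1 and 39 without CEBPB replicate 2. They went to 130 and 465 without CREB1(A297V) replicate 2, and to 2452 and 3975 without replicate 4.

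Sequences called lower in CREB1(A297V), in the fit on 8-mers with at least 8 probes, were mostly C/EBP sequences. Of the 25, 18 held TTGC or GCAA (3.83% of all 8-mers do), 14 held TTGC (1.95%) and 12 held ATTGC or GCAAT (0.778%). A CG was in 8, or 32.0%, against 38.1% of all 8-mers. The 8 that follow are those with the largest differences once sequences sharing 7 bases in a row are skipped. They were named for this fit after its values were seen, since the fit on every 8-mer called none.

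TTGCGCAA had an adjusted p of 0.00086 in that limma fit and TTGCGTAA one of 0.012. TTGCACAA, a single substitution away from the C/EBP palindrome, had Z-scores of 1.25, 1.13, -0.674 and 5.01 in CREB1(A297V), against 19.3 and 25.8 in CEBPB (difference -20.9, adjusted p 0.00043, limma). TTGCGAAA had 0.0227, -0.274, 0.843 and 3.63 in CREB1(A297V), against 17.6 and 24.9 in CEBPB (-20.2, adjusted p 0.00029, limma). Both were low in CREB1(A297V) replicates 1 to 3 and higher in replicate 4, while both CEBPB arrays were high.

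TTGTGAAA followed, without a full half-site of the 3, at 2.55, 1.36, 1.24 and 4.82 in CREB1(A297V), against 11.6 and 20.0 in CEBPB (-13.3, adjusted p 0.012, limma). GAAATCCT had 2.22, 1.57, 0.562 and 4.01 in CREB1(A297V), against 9.93 and 15.5 in CEBPB. In each of these 2, replicate 4 was the highest CREB1(A297V) array. TGATTGCA averaged 1.87 ± 2.07 in CREB1(A297V) and 11.2 in CEBPB, and TATTGCAT 1.22 ± 1.70 and 9.60 (SD, n = 4). Both hold ATTGC, a C/EBP half-site read from its other strand with an A before it. GAAATTCT, called lower with all 21 arrays, averaged 3.93 in CREB1(A297V) and 13.4 in CEBPB.

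In the other direction, some 8-mers with the PAR half-site were higher in CREB1(A297V), called with the spread of all 21 arrays and not with that of the 6. Arrays of other proteins enter the spread of the 21, which moved standard errors unevenly. With 21 arrays in place of 6, the standard error went from 2.85 to 1.93 at ATGTGTAA and from 4.1 to 2.8 at TTAGGTAA. At TTACGCAA it went from 2.77 to 17.9, so these calls depend on the borrowed spread. Of 2556 8-mers with GTAA or TTAC, 64 were called higher and 9 lower in the fit with 21 arrays. Over all 65535 8-mers, 341 (0.52%) were called higher and 1109 (1.69%) lower. TTAGGTAA had 14.2, 25.4, 16.9 and 14.5 in CREB1(A297V), against 3.62 and 5.26 in CEBPB (difference 13.3, adjusted p 0.031 with 21 arrays and 0.27 with 6, limma). ATGTGTAA had 14.6, 20.2, 16.6 and 14.8 in CREB1(A297V), against 3.20 and 3.43 in CEBPB (13.3, adjusted p 0.0072 with 21 arrays and 0.18 with 6, limma). Called 8-mers were named only where the groups did not overlap, so that every CREB1(A297V) array lay above both CEBPB arrays follows from that choice. By group mean these 8-mers ranked 3 and 4 in CREB1(A297V).

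The next were ATGAGTAA, at 7.42, 11.6, 13.2 and 8.72 in CREB1(A297V), against 1.71 and 1.58 in CEBPB, and ATTACACT, at 6.05, 8.93, 9.33 and 8.93, against 1.79 and 2.54. They too were named under the condition that the groups did not overlap. CATTACCA averaged 4.25 ± 0.727 in CREB1(A297V) and -0.504 in CEBPB, and CATTACAA 6.12 ± 2.01 and 1.62 (SD, n = 4). CCAGTAAT averaged 5.34 and -0.0306, and AGTAATGG 5.28 and 0.661. All 8 of these named 8-mers hold GTAA or TTAC, as did 18.8% of the 341 called higher and 0.812% of the 1109 called lower, against 3.9% of all 8-mers. Most of the 341 thus held no PAR half-site. TTGC was in 0 of the 341 and 124 of the 1109, against 1.95% of all 8-mers.

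The highest 8-mers of each protein showed the same division, here as a description. Among the 100 with the highest group mean and at least 8 probes, 95 held GTAA or TTAC in CREB1(A297V) and 33 in CEBPB. TTGC or GCAA was in 0 of them in CREB1(A297V) and in 48 in CEBPB. GTAA followed by T was in 40 of the CREB1(A297V) list and 9 of the CEBPB list, and preceded by T in 37 and 6. The 2 lists shared 21 8-mers, 21.0% of each. Strands with no C made up 41 of the 100 in CREB1(A297V) and 21 in CEBPB, and 6560 of all 8-mers.

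Of the 8-mers named for a high mean in CREB1(A297V), TTATGTAA had 10.4, 18.9, 11.4 and 15.8 in CREB1(A297V), against 11.4 and 11.4 in CEBPB, with overlapping groups. TGAGTAAT had 7.18, 11.5, 20.3 and 11.0 in CREB1(A297V), against 3.78 and 5.32 in CEBPB. GTGTAATC averaged 12.2 ± 2.05 in CREB1(A297V) and 6.96 in CEBPB, and TGAGGTAA 12.0 ± 4.21 and 6.85 (SD, n = 4). All 4 hold GTAA, and only TGAGTAAT and GTGTAATC had groups that did not overlap.

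Beside the PAR palindrome, TTACATAA and GTAATCGT were named for a high mean in CEBPB without holding TTGC or GCAA, and both also scored high in CREB1(A297V). TTGTGAAA, also without TTGC or GCAA, was low there, as given above. TTACATAA had 14.0, 19.1, 7.31 and 11.7 in CREB1(A297V), against 10.2 and 21.9 in CEBPB. GTAATCGT had 7.96, 11.5, 7.64 and 7.23 in CREB1(A297V), against 19.3 and 22.0 in CEBPB, without overlap. With the recomputed score the difference of GTAATCGT was 0.0234 on the log2 scale, so its direction rests on the deposited score.

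**Figure D2:**
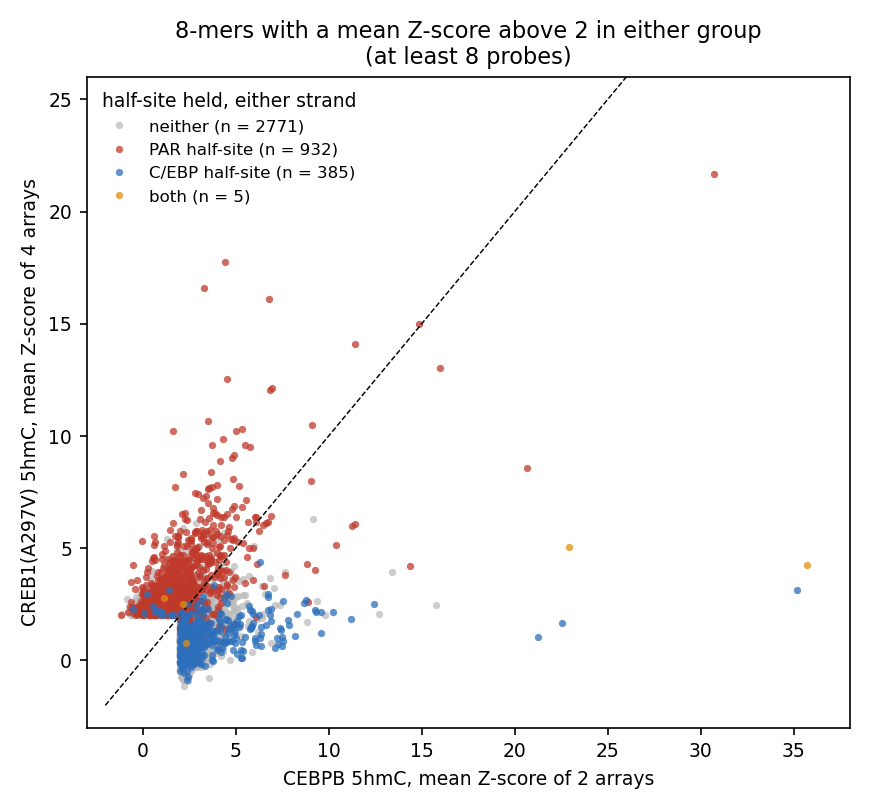
Mean Z-score of each 8-mer in CREB1(A297V) 5hmC (vertical axis, 4 arrays) and CEBPB 5hmC (horizontal axis, 2 arrays), for 4093 8-mers with at least 8 probes and a mean above 2 in either group, coloured by the half-site held on either strand. The dashed line marks equal values. The 8-mers with a PAR half-site (n = 932) spread upward, those with a C/EBP half-site (n = 385) spread to the right, and the PAR palindrome lies far out on both axes at 21.7 and 30.7.

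Single substitutions of the PAR palindrome showed where the proteins parted. Positions are counted from 1 at the 5′ end of TTACGTAA on the synthesised strand, and a value is given as a percent of the same array's Z-score for the unsubstituted palindrome, averaged over arrays. A3G, which makes TTGCGTAA, left 19.6% in CREB1(A297V) and 131% in CEBPB. T6C, which makes TTACGCAA, left 23.4% in CREB1(A297V) and 82.0% in CEBPB. Both changes turn a PAR half-site into a C/EBP half-site, and the per-array values did not overlap, at 8.18% to 38.2% against 69.6% and 192% for A3G, and 17.7% to 27.4% against 51.0% and 113% for T6C.

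Each change at position 4 removes the 5hmC of the synthesised strand, and of these C4G gave the opposite order without overlap. It left 83.6% in CREB1(A297V), over a range of 59.7% to 116%, and 16.0% in CEBPB, at 9.55% and 22.4%. C4T left 65.7% in CREB1(A297V) and 39.4% in CEBPB, where the ranges overlapped (45.9% to 86.0%, against 29.9% and 48.8%), and C4A left 29.8% in CREB1(A297V) and 21.9% in CEBPB, also with overlap. G5A, which makes TTACATAA, left 63.4% and 60.1%, and T2G, which makes TGACGTAA, left 70.1% and 51.3%. Changes at the outer positions 1, 7 and 8 left at most 26.2% in CREB1(A297V) and at most 11.5% in CEBPB.

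The substitutions of the C/EBP palindrome could be followed in CEBPB only, since TTGCGCAA itself averaged 3.12 ± 2.51 in CREB1(A297V) (SD, n = 4). C6T, which makes TTGCGTAA, left 101% of its Z-score in CEBPB, G3A left 65.0%, G5A 64% and C6A 60.3%. Any change at positions 1, 2, 7 or 8 left at most 5.76%. Of the 24 single-mismatch 8-mers of the C/EBP palindrome, 15 had groups that did not overlap with CREB1(A297V) lower and 0 with it higher, against 12.1% and 9.85% of all 8-mers. For the 24 of the PAR palindrome these counts were 4 and 2, with a median difference of 0.108, which turned to -0.0287 on the asinh scale and also turned negative without CREB1(A297V) replicate 1 or 2 or CEBPB replicate 1.

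**Figure D3:**
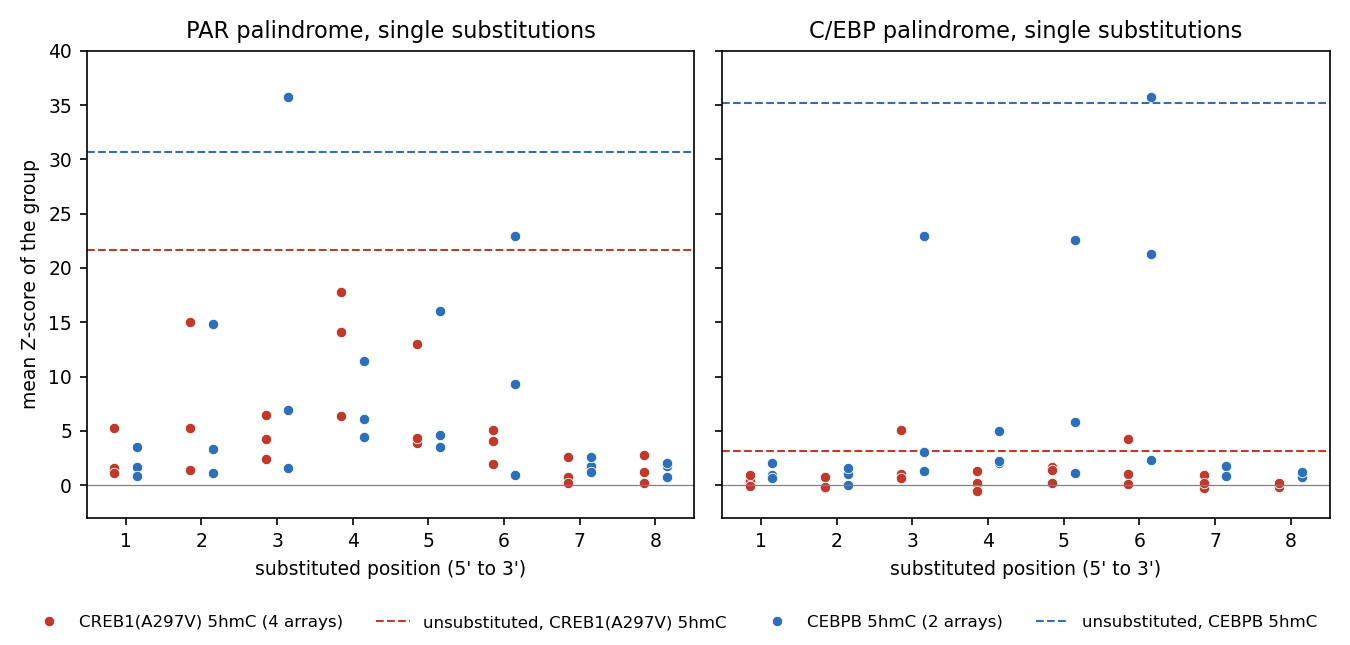
Group mean Z-score (vertical axis) of every single-base substitution of the PAR palindrome (left) and of the C/EBP palindrome (right), by substituted position counted from the 5′ end (horizontal axis), for CREB1(A297V) 5hmC and CEBPB 5hmC. Dashed lines mark the unsubstituted palindrome in each group. At positions 3 and 6 of the PAR palindrome CEBPB reaches 35.7 and 22.9, and CREB1(A297V) does not exceed 6.45.

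Lists of 64 8-mers that end in a half-site, or begin with its reverse complement, were compared by their medians. Over all 8-mers, 9.85% had groups apart with CREB1(A297V) higher and 12.1% with it lower. The list NNNTGTAA had the highest median of the half-site lists in CREB1(A297V), at 2.67, 3.12, 1.77 and 2.46, against 1.51 and 1.89 in CEBPB, and 19 of its members had groups apart with CREB1(A297V) higher and 1 with it lower. Only replicate 3 of CREB1(A297V) lay within the CEBPB values. NNNAGTAA had 1.93, 2.11, 1.46 and 1.41 in CREB1(A297V), against 0.790 and 1.10 in CEBPB, and NNNGGTAA had 1.49, 1.55, 0.843 and 0.763, against 0.252 and 0.270. In both, every CREB1(A297V) array lay above both CEBPB arrays. When the PAR half-site followed CG, the medians were closer: NNNCGTAA had 1.37, 1.47, 0.646 and 0.911 in CREB1(A297V), against 0.745 and 0.724 in CEBPB. The median difference of these 4 lists was 0.861, 0.929, 0.893 and 0.488, against -0.0107 over all 8-mers.

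Their reverse complements differed less, at median differences of 0.517 for TTACANNN, 0.0118 for TTACTNNN, 0.319 for TTACCNNN and 0.0495 for TTACGNNN. Without CREB1(A297V) replicate 4 these were 0.464, -0.0796, 0.0891 and -0.0592. In these strands the half-site itself carries the 5hmC. TTACANNN alone kept a clear separation, at 2.15, 2.28, 1.6 and 2.24 in CREB1(A297V), against 1.25 and 1.21 in CEBPB, with 21 members apart and higher and 0 apart and lower.

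The 4 lists that begin with TTGC had lower medians in CREB1(A297V). TTGCANNN had a median of 0.157, 0.281, -0.0562 and 1.21 in CREB1(A297V), against 1.46 and 1.92 in CEBPB. TTGCGNNN had -0.196, -0.188, -0.337 and 0.408, against 0.541 and 0.910. TTGCTNNN had -0.124, -0.170, 0.0562 and 0.994, against 0.932 and 1.05, and TTGCCNNN -0.313, -0.523, -0.337 and 0.521, against 0.457 and 0.552. In all 4 lists replicates 1 to 3 of CREB1(A297V) lay near the array median of 0 and below both CEBPB arrays, while replicate 4 lay between the CEBPB values in the lists TTGCTNNN and TTGCCNNN and nearer to them than to its own group in the other 2.

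The median differences of these lists were -1.26, -0.792, -0.982 and -0.796, and -1.57, -0.899, -1.24 and -1.07 without replicate 4. Members with groups apart and CREB1(A297V) lower numbered 30, 25, 20 and 15 of 64, and those apart and higher 0, 1, 0 and 1. Read on the other strand, NNNTGCAA had a median difference of -0.716, NNNCGCAA -0.276, NNNAGCAA 0.147 and NNNGGCAA 0.0341, so not every C/EBP list was lower. NNNCGCAA turned to 0.0983 without CEBPB replicate 1, NNNGGCAA to -0.0107 without CEBPB replicate 2 and NNNAGCAA to -0.0346 without CREB1(A297V) replicate 1.

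CRE half-site lists had medians of at most 1.35 on any array, that of TGACGNNN on CEBPB replicate 1. The largest CRE list difference was that of TGACGNNN, at -0.679, and it was -0.00515 without CEBPB replicate 1, so it rests on that array. NNNCGTCA had -0.110, NNNTGTCA -0.447, TGACANNN 0.0739, TGACTNNN -0.537, and NNNAGTCA, NNNGGTCA and TGACCNNN 0.0373, -0.0139 and 0.0680. TGACTNNN had medians of 0.0893, -0.155, -0.337 and 0.319 in CREB1(A297V), below both CEBPB values of 0.585 and 0.378. Of its 64 members, 16 had groups apart with CREB1(A297V) lower and 0 with it higher, and NNNTGTCA had 14 and 3. The other CRE lists had at most 9 apart and lower and at most 8 apart and higher. Over all 8-mers these shares were 12.1% and 9.85%. Single members reached higher means. The highest of TGACGNNN was 15.0 in CREB1(A297V) and 14.8 in CEBPB, that of TGACCNNN 7.67 and 2.82, that of TGACANNN 5.39 and 4.12, and that of NNNCGTCA 1.04 and 4.04.

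The median difference was -0.764 over the 24 single mismatches of the composite site and -0.453 over those of the CRE palindrome. Without CEBPB replicate 1 these were -0.131 and -0.175. It was -0.338 over 16 AP-1 8-mers (TGACTCA or TGAGTCA), -0.374 over 48 E-box 8-mers (CACGTG) and 0.274 over 95 ETS 8-mers (CCGGAA or TTCCGG). Without CEBPB replicate 1 the E-box list turned to 0.0469 and the ETS list had 0.0960. The 255 8-mers of A and T alone had -0.161, the 6305 with G and no C -0.0727, and the 157 with 3 or more CG 0.185. Self-complementary 8-mers had -0.0711 with a CG centre, -0.125 with GC, -0.252 with AT and -0.260 with TA. The remaining 8-mers had 0.0230 with CG and -0.0274 without.

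**Figure D4:**
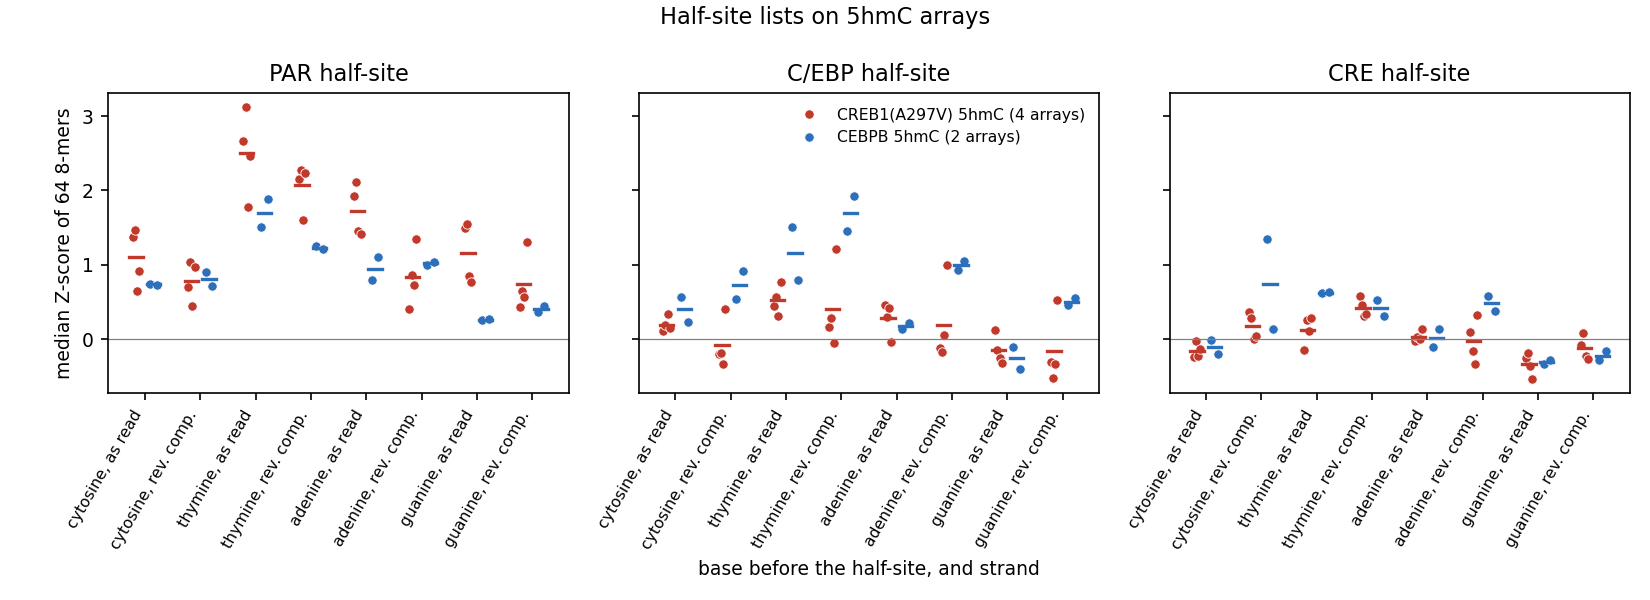
Median Z-score of 64 8-mers per list (vertical axis) for the PAR, C/EBP and CRE half-sites, by the base before the half-site and by strand (horizontal axis), with 1 point per array and a bar at the group mean, CREB1(A297V) 5hmC left of CEBPB 5hmC. As read, the PAR lists have the higher group mean in CREB1(A297V) after each of the bases, least so after cytosine. The reverse-complement C/EBP lists are higher in CEBPB with CREB1(A297V) replicate 4 the highest red point.

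Because a single strand carries 5hmC, an 8-mer and its reverse complement are the same DNA site with the modified strand exchanged. Strand differences were tested with limma over 32639 such pairs. In CREB1(A297V), 1311 pairs were called (4.02%), in CEBPB 292 (0.895%), and in the contrast between the proteins 26 (0.0797%). Of the pairs called in each protein, 36 were called in both with the same strand higher, 2.75% of the CREB1(A297V) pairs and 12.3% of the CEBPB pairs, and 2 with opposite strands higher. Orientation on the array is exchanged along with the modified strand, so values of CREB1(A297V) on unmodified cytosine (2 arrays) are given beside these. The series holds no array of wild-type CEBPB on unmodified cytosine. For CEBPB and for the contrast, orientation and modified strand thus cannot be told apart.

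Without CREB1(A297V) replicate 2, 50 CREB1(A297V) pairs, 93 CEBPB pairs and 5 pairs of the contrast were called. Without replicate 4 the counts were 1996, 492 and 539. The contrast had 4 calls (0.0127%) among pairs with at least 8 probes on each strand.

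In CREB1(A297V), the pairs with the largest called difference all had the GTAA strand as the higher one. TTAGGTAA, a strand with 0 C, averaged 17.8 and its reverse complement TTACCTAA, with 2 C, 3.92 (strand difference 13.8 ± 5.44, SD, n = 4; adjusted p 0.0013, limma). In CEBPB the same strands averaged 4.44 and 4.64. On unmodified cytosine CREB1(A297V) gave them 13.0 and 15.5, the opposite order. ATGTGTAA averaged 16.6 and TTACACAT 4.27 in CREB1(A297V) (12.3 ± 2.29, SD, n = 4; adjusted p 0.0020, limma), against 3.31 and 2.89 in CEBPB, and on unmodified cytosine CREB1(A297V) gave 12.9 and 12.5. For both sites the strands differed in CREB1(A297V) on 5hmC and lay close together in CEBPB, though the contrast itself was not called (adjusted p 0.074 and 0.14, limma).

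TGAGGTAA over TTACCTCA (11.4), TGAGTAAT over ATTACTCA (9.97) and TGTCGTAA over TTACGACA (9.46) completed the 5 named pairs of CREB1(A297V). In CEBPB these differences were 6.51, 2.64 and 8.07. On unmodified cytosine CREB1(A297V) had 2.20, 4.19 and 4.5. With at least 8 probes on each strand, ATGTGTAA was still called in CREB1(A297V) (adjusted p 0.021, limma), and TTAGGTAA, TGAGGTAA, TGAGTAAT and TGTCGTAA were not (0.14, 0.093, 0.061 and 0.073). Among the 1311 called pairs the higher strand held GTAA in 158 and TTAC in 21, while 1277 of all 32639 pairs hold GTAA on a single strand. Among the 292 pairs called in CEBPB it held GTAA in 27 and TTAC in 0.

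TGACGTAA was the higher strand over its reverse complement TTACGTCA in both proteins. The strand difference was 12.2, 15.7, 16.7 and 12.3 in CREB1(A297V), against 12.1 and 13.9 in CEBPB. It lay far from 0 on all 6 arrays but was not called with the mean-variance trend (adjusted p 0.34 in CREB1(A297V) and 0.63 in CEBPB, limma). Nor was it called in either protein with at least 8 probes (adjusted p 0.67 and 0.84, limma) or with all 21 arrays (0.55 and 0.75). With no trend, an alternative added after the values were seen, the adjusted p was 2.5e-07 in CREB1(A297V) and 1.1e-05 in CEBPB (limma). On unmodified cytosine CREB1(A297V) gave the 2 strands 37.4 and 26.7, a difference of 10.7 ± 0.680 (SD, n = 2).

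The 5 largest called strand differences of CEBPB were at TTGCACAA, GTAATCGT, TTGCGAAA, TTGTGAAA and GAAATTCT (20.3, 18.7, 18.2, 13.8 and 13.1), of which TTGCACAA and TTGCGAAA hold TTGC and GTAATCGT holds GTAA. TTGCACAA averaged 1.68 in CREB1(A297V) and 22.6 in CEBPB, and its reverse complement TTGTGCAA -0.547 and 2.22. The strand difference was 2.22 ± 1.40 in CREB1(A297V) and 20.3 ± 4.45 in CEBPB (SD, n = 4 and 2), and the contrast was called (-18.1, adjusted p 0.014, limma). TTGCGAAA over TTTCGCAA differed by 0.415 ± 2.26 in CREB1(A297V) and 18.2 ± 4.52 in CEBPB (contrast -17.8, adjusted p 0.0026, limma). TTGTGAAA over TTTCACAA differed by 1.81 and 13.8, and its contrast was called too (-12, adjusted p 0.016, limma). In each of these 3 pairs both strands were low in CREB1(A297V).

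TTGCGTAA and TTACGCAA, the 2 strands of the mixed C/EBP and PAR site, differed by -0.538, -3.49, -2.36 and 3.23 in CREB1(A297V), against 7.04 and 18.6 in CEBPB (contrast -13.6, adjusted p 0.041, limma). CREB1(A297V) replicates 1 to 3 had TTACGCAA higher, and replicate 4 had TTGCGTAA higher, as CEBPB did. GTAATCGT over ACGATTAC differed by 5.22 ± 1.26 in CREB1(A297V) and 18.7 ± 1.03 in CEBPB (contrast -13.5, adjusted p 0.0055, limma). GTAATAAT over ATTATTAC differed by -1.28 ± 1.97 in CREB1(A297V) and 11.1 ± 1.37 in CEBPB (contrast -12.4, adjusted p 0.00054, limma). With at least 8 probes the limma contrast was called for TTGCGAAA and GTAATAAT (adjusted p 0.0090 and 0.00021) and not for TTGCACAA, TTGTGAAA, TTGCGTAA and GTAATCGT (0.11, 0.078, 0.068 and 0.67). In CEBPB alone, the strand difference of GTAATCGT was not called with that filter either (0.35).

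Over all 1277 pairs in which a single strand holds GTAA, that strand was higher in 885 in CREB1(A297V) and in 691 in CEBPB, with median differences of 0.607 and 0.154. By array the medians were 0.870, 0.890, 0.450 and 0.0947 in CREB1(A297V), against 0.144 and 0.123 in CEBPB, so replicate 4 lay with CEBPB. Over the 1229 pairs in which a single strand holds GCAA, that strand was higher in 715 in CREB1(A297V) and in 347 in CEBPB. The medians were 0.597, 0.386, 0.337 and -0.663 in CREB1(A297V), against -0.472 and -0.941 in CEBPB, and replicate 4 again had the sign of CEBPB. CREB1(A297V) on unmodified cytosine had medians of 0.424 for GTAA and 0.774 for GCAA.

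**Figure D5:**
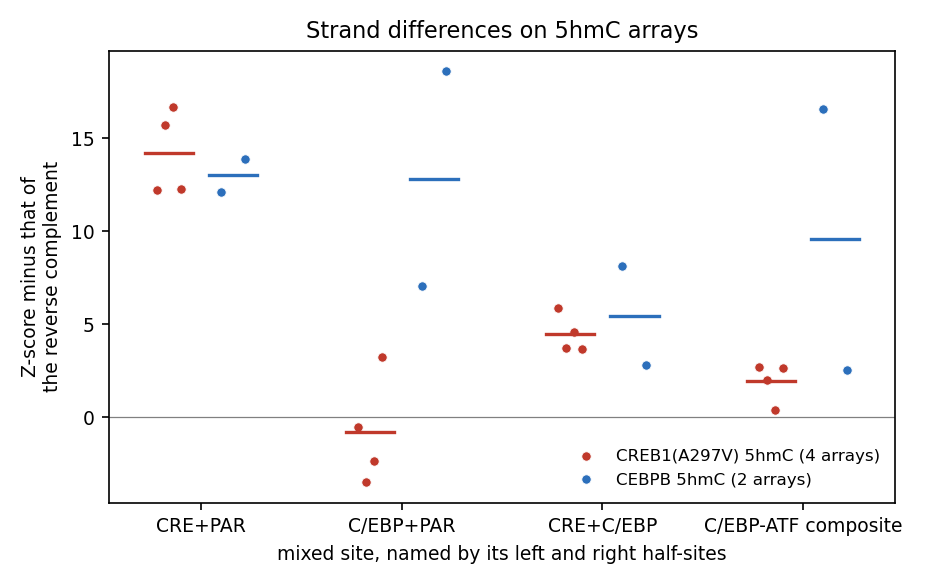
Z-score of a mixed site minus that of its reverse complement (vertical axis), with 1 point per array and a bar at the group mean, for CREB1(A297V) 5hmC (4 arrays, left of each pair) and CEBPB 5hmC (2 arrays). At the CRE and PAR site all 6 arrays lie between 12.1 and 16.7, and at the C/EBP and PAR site 3 of the 4 CREB1(A297V) arrays lie below 0 and both CEBPB arrays above it.

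Single probes were compared on background-corrected, quantile-normalized log2 intensities. Of 40330 probes, 34 were higher (0.0843%) and 200 lower (0.496%) in CREB1(A297V), together 0.58% (limma, adjusted p under 0.05). The split was 12 higher and 10 lower without CEBPB replicate 1, 16 and 16 without CEBPB replicate 2, 13 and 12 without CREB1(A297V) replicate 2, and 32 and 48 without replicate 3. It was 35 and 324 without replicate 1, and 50 and 289 without replicate 4. The split was 391 and 1237 with no background correction and 2342 and 2541 with median scaling, so the share of higher probes depends on the scaling and on single arrays. All 34 higher probes held GTAA or TTAC, as did 29 of the 200 lower ones and 22.8% of all probes. TTGC or GCAA was in 6 of the 34, 66 of the 200 and 22.1% of all.

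The probes with the largest differences and those brightest in a group are shown as the synthesised strand, 5′ to 3′, all 35 variable bases. Capitals here mark the 8-mer with the highest mean Z-score of the group in which the probe is the brighter.
Brightest in CREB1(A297V), first: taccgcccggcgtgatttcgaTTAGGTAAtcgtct
Brightest in CREB1(A297V), second, and largest positive difference: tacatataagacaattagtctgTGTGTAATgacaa
Second positive difference: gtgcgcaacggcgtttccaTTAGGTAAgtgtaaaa
Brightest in CEBPB, first: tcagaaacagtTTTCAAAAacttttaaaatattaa
Brightest in CEBPB, second: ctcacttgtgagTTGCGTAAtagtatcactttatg
Largest negative difference: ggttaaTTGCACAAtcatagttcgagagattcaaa
Second negative difference: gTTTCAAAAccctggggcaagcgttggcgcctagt

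The probe with TGTGTAAT was 16.5, 16.7, 13.1 and 9.83 times as bright as the array median in CREB1(A297V), against 3.10 and 3.00 times in CEBPB. Its log2 difference was 4.16 with a standard error of 0.37 (adjusted p 1e-05, limma). The brightest probe of CREB1(A297V), with TTAGGTAA, was 25.8, 26.7, 26.3 and 25.2 times the median, against 12.8 and 15.8 times in CEBPB (log2 difference 2.46, adjusted p 0.00027, limma). That probe also holds GTAATCGT, with a mean Z-score of 8.58 in CREB1(A297V) and 20.6 in CEBPB. Both probes were above the array median in every array of both proteins, and brighter relative to it in CREB1(A297V).

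The probe with TTGCACAA was 1.23, 1.09, 1.03 and 1.85 times the median in CREB1(A297V), against 26.6 and 43.4 times in CEBPB (log2 difference -5.29 with a standard error of 0.65, adjusted p 0.00063, limma). The one with TTGCGTAA was 1.90, 2.66, 2.16 and 10.5 times the median in CREB1(A297V), against 44.1 and 43.3 times in CEBPB (-3.12, adjusted p 0.019, limma). On this probe CREB1(A297V) replicate 4 stood well above its 3 fellow arrays and below both CEBPB arrays. The brightest CEBPB probe carried none of the fixed sites. It held TTTCAAAA, an 8-mer with a mean Z-score of 2.64 in CREB1(A297V) and 9.38 in CEBPB, and was 5.21, 2.93, 3.51 and 2.06 times the median in CREB1(A297V), against 60.8 and 51.9 times in CEBPB. TTTCAAAA recurred in the probe with the second largest negative difference, at 1.58, 1.24, 0.987 and 1.10 times the median in CREB1(A297V), against 28.9 and 21.3 times in CEBPB.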

How the data were processed

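Protein binding microarrays of the HK design (40330 probes with 35 variable bases) were read in Cy5, per the labels. Each deposited signal table lists, as its header names them, a median intensity for the spot and another for the background around it. The deposited Z-score matrix holds the authors' score of each 8-mer on each array. How it was computed is not given in the sources used here. Compared with the probe signals, matrix names were the printed sequence read backwards (r 0.579 to 0.869 on the 6 arrays, at most 0.366 for other readings). Their complement was taken as the synthesised strand. That the printed strand is the template was assumed and not tested, and if it is not, each 8-mer here stands for its reverse complement.

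Z-scores and strand differences were fitted with limma 3.58.1 in R 4.3.3 (lmFit, eBayes with a mean-variance trend, 1 coefficient per group), two-sided, with Benjamini-Hochberg adjustment over all 8-mers or pairs. The 256 self-complementary 8-mers have no strand pair. Probe intensities were corrected with normexp (offset 50), quantile normalized and put on the log2 scale. The fit was tested on simulated data.

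The members and lists were chosen with earlier results of these data known. Named 8-mers were 11 fixed sites, the 8 highest means per group, and up to 8 called in each direction, with at least 8 probes and groups that do not overlap, skipping any that shares 7 bases in a row. Since the fit on the 6 arrays called no 8-mer, the called ones were taken from 2 of the alternatives, at least 8 probes and all 21 arrays, after seeing that. The 5 largest called strand pairs of each kind, the 2 brightest probes per group and the 2 largest called probe differences in each direction were also named. Alternatives were other scales, normalizations, filters, array sets, blocks, array weights and leaving out each array.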

Additional observations from a re-analysis of the deposited data

Results flagged for a closer look

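Dixon's test for a sample far from the others was applied to 75 sets of 4 CREB1(A297V) 5hmC values, and 4 sets passed its critical value. Chance flags about 1 in 20. TTGCGTAA had 9.29 in replicate 4, against 2.02 to 3.20 in the other CREB1(A297V) arrays. GTGTAATC had 9.09 in replicate 1, against 13.1 to 13.2 in the others. ATTACACT had 6.05 in replicate 1, against 8.93 to 9.33. TTGCGTCA had 0.687 in replicate 2, against -0.390 to -0.337.

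The strand difference itself differed between CREB1(A297V) and CEBPB in the limma contrast (CREB1(A297V) minus CEBPB) at TTGCACAA (-18.1), TTGCGAAA (-17.8), TTGCGTAA (-13.6), GTAATCGT (-13.5) and GTAATAAT (-12.4). In each, the strand named is the one that was higher in CEBPB. In CREB1(A297V) the named strand averaged below its reverse complement at TTGCGTAA (-0.789) and GTAATAAT (-1.28), and above it at the others.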

How the results depend on the processing

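For 8-mers, 0 were also called with the replicate block, a random block by array number, asinh, quantile normalization, division by the array SD, the recomputed score, array weights and each array left out of the 6 (limma, 2230 to 11917 at an unadjusted p under 0.05). The count was 25 with at least 8 probes, 1450 with all 21 arrays and 72 for the mean of both strands. Among alternatives chosen after seeing the data it was 34 with at least 1 probe, 4 with the 10 arrays on 5hmC, 1861 with 21 arrays and asinh, and 1 with no mean-variance trend. With at least 8 probes, leaving out CEBPB replicate 1 or 2 gave 28 or 32, and CREB1(A297V) replicates 1 to 4 gave 20, 3, 2 and 222. With 21 arrays these gave 174 or 40, and 1930, 595, 1140 and 6427. The calls on which named 8-mers rest thus depend on the array set and the filter. The total degrees of freedom of the fit were 6.93 with every 8-mer, 16.3 with at least 1 probe and 22.6 with at least 8 probes. The count of 0 thus depends on keeping the 409 8-mers without a probe in the fit. The cause was not tested.

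Strand pairs called in CREB1(A297V) numbered 6041 with 21 arrays, 2803 with the 10 arrays on 5hmC, 6992 with 21 arrays and asinh, and 50 to 2288 with 1 array left out. In CEBPB they numbered 3054, 769 and 4272 in the same fits, 167 with a random block, 97 with asinh, 466 after quantile normalization, 1263 with the recomputed score, 7605 with array weights, and 55 to 742 with 1 array left out. The contrast had 1070, 49 and 1772, then 3723 with the replicate block, 2 with asinh, 15 with the recomputed score, 4 with at least 8 probes, 1914 with array weights, 45 with no trend, and 5 to 539 with 1 array left out. Probe calls numbered 1628 with no background correction, 4883 with median scaling, 3631 with the replicate block, 454 with a random block, and 22 to 359 with 1 array left out.

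The replicate block rests on 2 shared numbers that no label ties together (correlation of deviations 0.146 and 0.058), and CREB1(A297V) replicates 3 and 4 have no partner. Differences of 6 named 8-mers changed sign. With 1 array left out, TGACGTCA ran from -8.20 to 1.19, TGACGCAA from -5.36 to 1.53, TGACGTAA from -0.838 to 1.04 (-0.0934 without CREB1(A297V) replicate 2) and TTACATAA from -8.85 to 2.85. With the block, TGACGTAA had -0.718 and TTACATAA 0.529. After quantile normalization TTACGTAA had 8.27 and TTACATAA 4.00. With the recomputed score TTACGTAA had 0.589, GTAATCGT 0.0234 and TTACATAA 0.734. The cause was not tested. Low signal over background limits CREB1(A297V) replicate 3, with a median intensity of 76.0 against a background of 68.0, and replicate 2, where 43.9% of spots exceeded their background.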

Other observations

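Of the 25 8-mers called lower in CREB1(A297V) among those with at least 8 probes, 7 held neither TTGC nor GCAA. Beside TTGTGAAA and GAAATCCT these were lower-scoring sequences, listed here after their values were seen. TGCACAAC had 0.255, 0.435, 0.899 and 1.46 in CREB1(A297V), against 6.58 and 7.23 in CEBPB. TGCACACA, which shares TGCACA with it, had 0.0850, 0.0101, 0.337 and -0.414 in CREB1(A297V), against 4.79 and 4.59 in CEBPB. GAGTGACG averaged 0.384 ± 0.787 in CREB1(A297V) and 5.87 in CEBPB, GTTCAATC -0.763 ± 0.656 and 3.57, and AATGTGCA -1.14 ± 0.866 and 2.24 (SD, n = 4). None of these 5 had overlapping groups, as was true of all 25, against 12.1% of all 8-mers apart with CREB1(A297V) lower.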
